A study of Mus musculus with 12 samples.

Results

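The interval described here runs over mm9 chr5:29520000-29725000, 205 kb that hold Rnf32, Lmbr1 and the limb enhancer ZRS. Its contacts were taken as all pairs of HindIII fragments with 1 midpoint inside the interval and the other outside it, leaving out partners in the Shh window at chr5:28770000-28810000. Of 341 fragments shared by all files, 51 lie in the interval. They give 14331 of the 57970 fragment pairs of the region, and 7123 of these were above 0 in at least 1 library, against 28980 in the whole region. Contacts were measured by 5C (chromosome conformation capture carbon copy), in which crosslinked chromatin is cut and religated and a read stands for the joining of 2 known fragments.

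Rnf32 encodes a RING-finger protein, and Lmbr1 encodes a membrane protein. ZRS is an enhancer that drives Shh in the posterior limb bud and lies in an intron of Lmbr1, at the far end of the gene desert from Shh. Shh itself encodes a secreted signal that patterns limb and neural tube. Enhancers and the promoters they serve commonly share a topologically associating domain, a stretch of chromatin whose parts touch each other more often than they touch sequence beyond its borders, and the Lmbr1 end of the interval is known as the neighbourhood of the Shh domain's border. The same domain holds SBE6, SBE4 and SBE2, which serve Shh in the nervous system.

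The 46c line is a mouse embryonic stem cell line that carries a reporter for neural commitment. The groups were untransfected 46c embryonic stem cells (ESC, 2 biological replicates), neural progenitor cells made from 46c ESC by 7 days in N2B27 medium (NPC, 2 biological replicates), and transfected 46c ESC labelled tSBE6-Vp64 (1 replicate), tSBE2-Vp64 (1 replicate) and tSBE(6+2-Vp64) (2 biological replicates in 4 libraries). Vp64 is a transcription activator, and the labels name the enhancers SBE6 and SBE2 with it but do not expand the t. Untransfected ESC served as the comparator for every group, so the 4 comparisons share the ESC libraries. No transfected group without the activator was analysed here. None of these cells are limb cells, so the limb activity of ZRS was not part of the design. The labels call the replicates biological without saying what was grown apart, and p-values measure only the spread between them.

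Values are reads of a fragment pair per 1000 reads of the library over the shared fragments. An element is the set of fragments with midpoints within 20 kb to either side of an approximate position: Rnf32 at chr5:29520000-29560000 (12 fragments), ZRS at chr5:29621000-29661000 (12 fragments) and the Lmbr1 promoter at chr5:29685000-29725000 (8 fragments), with another 19 Lmbr1 fragments between these windows. Rnf32 has 3372 pairs with the outside (1677 above 0 in some library), ZRS 3372 (1686) and the Lmbr1 promoter 2248 (1097). The outside was split into the Shh-side flank (Insig1, En2, Cnpy1 and Rbm33), the Shh domain between Shh and the interval, and the Lmbr1-side flank (Nom1, Mnx1 and Ube3c).

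Rnf32 and Lmbr1 are neighbours in RefSeq, on opposite strands, with their promoters at opposite ends of the interval. The 250 bases before each annotated start are shown as each gene's promoter, while the windows rest on approximate mm9 positions. Both are from RefSeq in build GRCm38.p6, not the mm9 of the files, at chr5:29195743-29195992 (plus strand) and chr5:29378391-29378640 (minus strand), and capitals mark CG dinucleotides.
Rnf32: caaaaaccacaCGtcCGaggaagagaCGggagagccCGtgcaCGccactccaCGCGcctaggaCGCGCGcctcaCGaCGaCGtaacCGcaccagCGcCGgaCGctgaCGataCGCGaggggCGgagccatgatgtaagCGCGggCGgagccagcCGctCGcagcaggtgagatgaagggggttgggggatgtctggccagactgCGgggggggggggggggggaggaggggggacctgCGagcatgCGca
Lmbr1: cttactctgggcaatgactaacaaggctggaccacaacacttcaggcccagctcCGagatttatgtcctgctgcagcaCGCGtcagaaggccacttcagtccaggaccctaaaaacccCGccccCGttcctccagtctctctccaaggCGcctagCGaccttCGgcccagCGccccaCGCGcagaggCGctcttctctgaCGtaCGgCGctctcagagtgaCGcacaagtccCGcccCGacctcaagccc
The Rnf32 stretch holds 29 CG dinucleotides and the Lmbr1 stretch 18, against a median of 6 over 32851 promoters of the same length. Fewer CG were found in 93.2% of promoters than in that of Rnf32 and in 78.3% than in that of Lmbr1. Neither stretch holds a HindIII site (AAGCTT, the same on both strands), which 6.22% of all promoters hold.

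The 12 files hold 11 libraries, since 1 NPC library was deposited under 2 sample names and was counted once, in NPC replicate 1. The names belong to NPC replicate 1 and NPC replicate 2, and which of them the library came from is not known. Counting it in NPC replicate 2 alone was not tried. The libraries differed in evenness as well as in depth, which the smallest step of their values puts at 0.978 to 48.1 M reads. Fragments fell into 2 classes of 176 and 165, and no pair within a class was above 0 in any library. Only the 7155 member pairs between the classes therefore carry data, and all but 32 of them were above 0 somewhere. The share of the 7123 member pairs above 0 ran from 28.5% in tSBE(6+2-Vp64) replicate 2, technical replicate 2, to 99.8% in tSBE(6+2-Vp64) replicate 1, technical replicate 1, and was 87.5% and 46.9% in the ESC replicates. In all, 21 fragment pairs over 50 kb apart each held over 0.5% of a library, 6 of them members. Together the 21 took little of ESC replicate 1 (0.222%) and more of ESC replicate 2 (12.8%). In NPC their share ran from 40.5% to 49.7%. It was 3.69% in tSBE6-Vp64 and 31.1% in tSBE2-Vp64, and tSBE(6+2-Vp64) ranged over 5.21% to 27.6%. Since each library sums to a fixed total, a library with much signal in these pairs has less left for all others. Sums with the Shh domain for Rnf32 and ZRS, and several differences between NPC and ESC, are given both with these pairs and without them, in the latter case with the libraries rescaled.

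Most outward signal of Rnf32 went to the Shh domain. The signal summed over the Shh domain was 13.6 and 9.54 per 1000 in the ESC replicates, 8.83 and 10.3 in NPC, 16.4 in tSBE6-Vp64, 10.3 in tSBE2-Vp64, and 18.1 and 8.01 in tSBE(6+2-Vp64). The domain took 59.6% to 71.8% of the outward signal of Rnf32 over the 8 replicates, and the Lmbr1-side flank 12.4% to 20.5%. NPC lay within or just under the ESC range in the domain, while the tSBE(6+2-Vp64) replicates spanned it. The higher tSBE(6+2-Vp64) value is an average of 2 technical libraries at 26.7 and 9.53, so that 1 library carries it. Without the dominating pairs and with the libraries rescaled, the sum was 13.6 and 10.9 in ESC, 16.2 and 17.2 in NPC, 17.0 in tSBE6-Vp64, 14.9 in tSBE2-Vp64, and 19.8 and 9.71 in tSBE(6+2-Vp64). Both NPC replicates were then above both ESC replicates, so the place of NPC against ESC turns with those pairs.

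ZRS gave a like picture with more signal past Lmbr1. Its sum over the Shh domain was 13.6 and 10.7 per 1000 in ESC, 8.96 and 7.97 in NPC, 14.5 in tSBE6-Vp64, 9.77 in tSBE2-Vp64, and 19.1 and 7.85 in tSBE(6+2-Vp64). Both NPC replicates were below both ESC replicates. Without the dominating pairs and with the libraries rescaled, ESC had 13.6 and 12.3, NPC 16.4 and 13.4, tSBE6-Vp64 15.1, tSBE2-Vp64 14.2, and tSBE(6+2-Vp64) 20.9 and 9.90. The gap between NPC and ESC was then gone, with 1 NPC replicate above both ESC replicates and the other between them. With all pairs kept, the domain held 60.0% and 64.7% of the outward signal of ZRS in ESC and 61.2% in tSBE6-Vp64, against 50.5% and 48.0% in NPC, 52.7% in tSBE2-Vp64, and 53.9% and 52.7% in tSBE(6+2-Vp64). With 2 replicates against 2, an exact two-sided permutation test cannot give a p under 0.333, and these shares are given without a test.

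The Lmbr1 promoter differed from both. Its signal lay mainly with the flank just past it, at 13.1 and 51.9 per 1000 in the ESC replicates, 130 and 119 in NPC, 19.4 in tSBE6-Vp64, 79.4 in tSBE2-Vp64, and 30.7 and 40.6 in tSBE(6+2-Vp64). The ESC mean was 32.5 ± 27.4 (SD, n = 2), and that of NPC was 125 ± 7.98 (SD, n = 2). NPC replicates were above both ESC replicates, but the ESC replicates themselves lay far apart. The Shh domain received 3.74 to 8.22 per 1000 over the 8 replicates. Without the 21 dominating pairs the flank sum was 12.4 and 9.96 in ESC and 9.29 and 9.30 in NPC, with 10.2 to 13.4 in the other replicates, so the gap between the groups lies in those pairs.

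**Figure D1:**
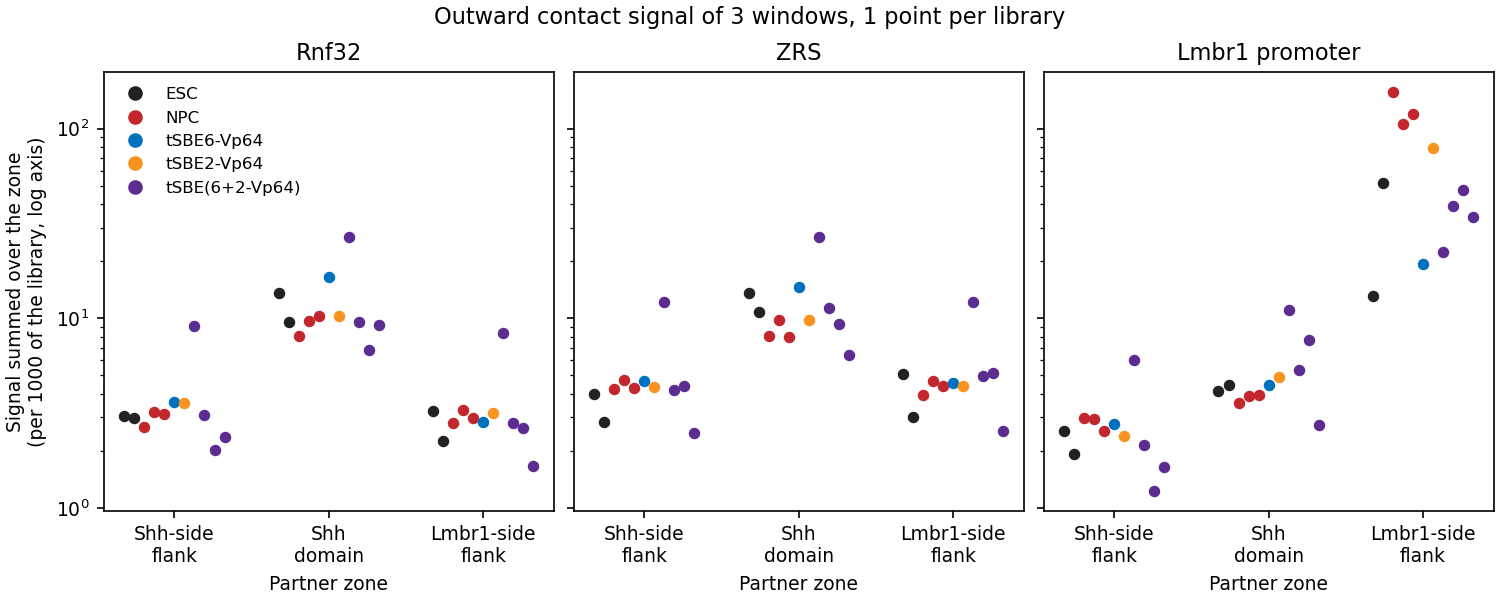
Signal per 1000 reads of the library, summed over the fragment pairs that join each window to each partner zone (log axis), with 1 point for each of 11 libraries coloured by group. Rnf32 and ZRS have their highest sums in the Shh domain, the Lmbr1 promoter has its own in the Lmbr1-side flank, from 13.1 in ESC replicate 1 upward, and 1 tSBE(6+2-Vp64) library is high throughout Rnf32 and ZRS.

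The zones lie at different distances, and contact falls with distance, so each sum was also divided by what the library's mean signal at the same distances would give. Without the dominating pairs, this ratio for ZRS with the Shh domain was 1.41 and 1.45 in ESC, 1.14 and 1.03 in NPC, 1.40 in tSBE6-Vp64, 1.12 in tSBE2-Vp64, and 1.27 and 1.10 in tSBE(6+2-Vp64). For ZRS with the Lmbr1-side flank it was 0.652 and 0.584 in ESC, 0.975 and 0.933 in NPC, 0.539 in tSBE6-Vp64, 0.813 in tSBE2-Vp64, and 0.872 and 0.799 in tSBE(6+2-Vp64). ZRS was thus above the distance average in the domain and below it past Lmbr1 in all 8 replicates. The gap was wide in ESC and tSBE6-Vp64 and narrow in NPC, with the other groups between.

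The gap between domain and flank was tested over the 8 biological replicates, as the log2 ratio of the distance-scaled values within each, with an exact two-sided sign-flip permutation test. The smallest p it can give is 0.0078, and p-values were adjusted over 6 comparisons. The 6 comparisons were added after the data were seen, so their p-values are descriptive. For ZRS the domain exceeded the flank by 0.71 on the log2 scale (SD 0.49, n = 8, higher in 8 of 8, adjusted exact p = 0.0094) without the dominating pairs, and by 0.53 (SD 0.52, n = 8, higher in 7 of 8, adjusted exact p = 0.016) with them. By replicate the ZRS log2 ratio without them was 1.11 and 1.31 in ESC, 1.38 in tSBE6-Vp64, 0.23 and 0.15 in NPC, 0.46 in tSBE2-Vp64, and 0.55 and 0.46 in tSBE(6+2-Vp64). The libraries with the smallest ratios, those of NPC, were also those with the largest share in the dominating pairs, while ESC replicate 2 had 12.8% in them and a ratio as high as ESC replicate 1. What part these pairs have in the ratio was not tested.

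For Rnf32 the domain also exceeded the Lmbr1-side flank, by 0.61 on the log2 scale (SD 0.30, n = 8, higher in 8 of 8, adjusted exact p = 0.0094) without the dominating pairs and 0.80 (SD 0.23, n = 8) with them. This ratio sets the zones against each other. It does not place Rnf32 above the distance average in the domain, as was seen for ZRS. The Lmbr1 promoter went the other way, with the domain below the flank in 8 of 8 replicates. The log2 ratio was -0.69 (SD 0.22, n = 8, adjusted exact p = 0.0094) without the dominating pairs and -3.45 (SD 1.64, n = 8, adjusted exact p = 0.016) with them. The replicates come from 5 groups, so each of these tests describes the cells pooled and not any group.

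Relative to distance, ZRS had more contact than Rnf32 in most replicates in each zone. Without the dominating pairs, ZRS exceeded Rnf32 by 0.45 on the log2 scale in the Shh domain (SD 0.18, n = 8, 8 of 8 replicates, adjusted exact p = 0.0094), by 0.35 in the Lmbr1-side flank (SD 0.13, n = 8, 8 of 8, adjusted exact p = 0.0094) and by 0.38 in the Shh-side flank (SD 0.20, n = 8, 7 of 8, adjusted exact p = 0.016). With those pairs kept, the differences were 0.30 (7 of 8), 0.57 (8 of 8) and 0.32 (7 of 8), with an adjusted exact p of 0.016 (n = 8) for each. Both windows hold 12 fragments, and whether their fragments are captured equally well was not tested.

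**Figure D2:**
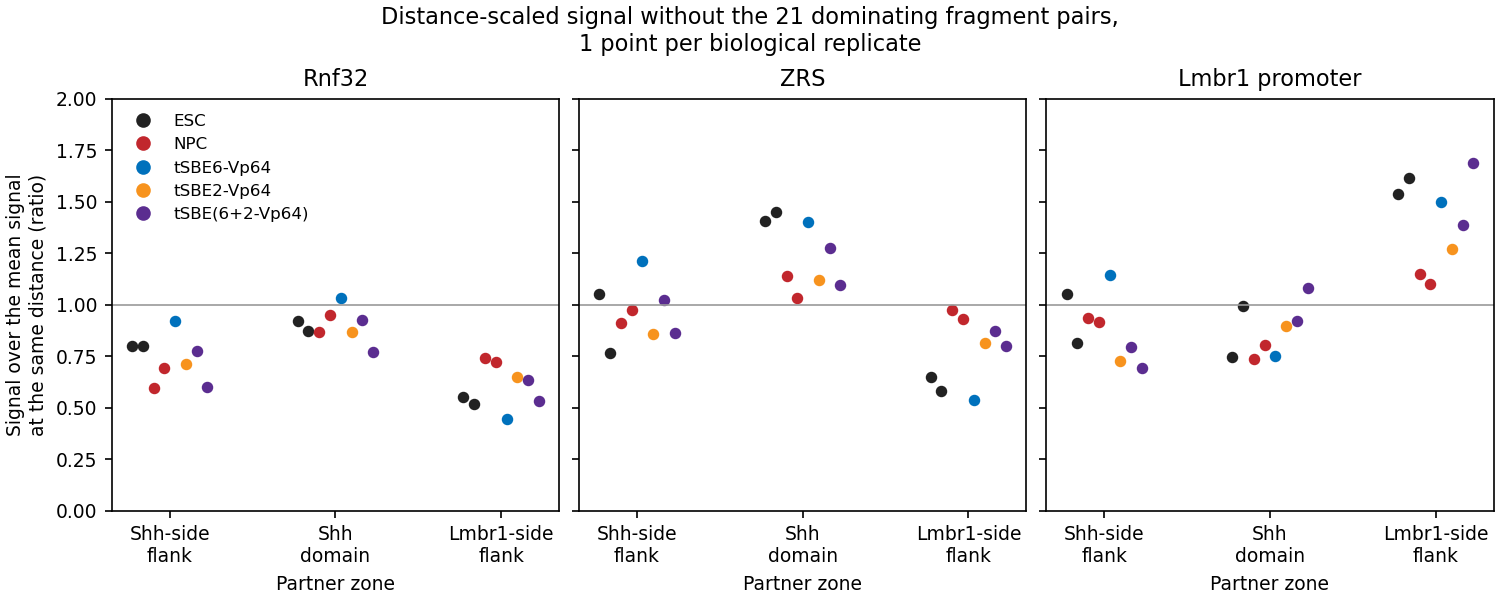
Distance-scaled signal (ratio to the library's mean at the same distances, grey line at 1) of the 3 windows by partner zone, without the 21 dominating fragment pairs, with 1 point for each of 8 biological replicates coloured by group. ZRS lies above 1 in the Shh domain and below 1 in the Lmbr1-side flank in all 8 replicates, with the 2 ESC replicates and tSBE6-Vp64 farthest apart, and the Lmbr1 promoter lies above 1 in the Lmbr1-side flank.

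ZRS touched SBE2, the forebrain enhancer nearest to it of the 3 neural enhancers, more than it touched SBE4 or SBE6 in all 8 replicates. Mean signal per fragment pair between ZRS and SBE2 (60 pairs, median distance 405 kb) was 0.0176 and 0.0465 in ESC, 0.0216 and 0.0182 in NPC, 0.0203 in tSBE6-Vp64, 0.0125 in tSBE2-Vp64, and 0.0243 and 0.0166 in tSBE(6+2-Vp64). The value of ESC replicate 2 stands out. It comes from 1 fragment pair, Shh_447 (chr5:29656939-29658283) with Shh_287 (chr5:29237129-29240127), at 1.58 per 1000 in ESC replicate 2 and 0.00547 in ESC replicate 1. Without that pair, ZRS with SBE2 was at 0.0178 and 0.0206 in ESC, 0.0129 and 0.0116 in NPC, 0.0203 in tSBE6-Vp64, 0.0115 in tSBE2-Vp64, and 0.0242 and 0.0107 in tSBE(6+2-Vp64). SBE2 remained the highest of the 3 partners of ZRS in 8 of 8 replicates with the highest pair of each left out. With the dominating pairs also left out and the libraries rescaled, ESC had 0.0179 and 0.0236 and NPC 0.0236 and 0.0195, within the ESC range, while tSBE2-Vp64 had 0.0167. The limma difference of NPC from ESC for ZRS with SBE2 was -0.52 with all pairs and 0.17 (adjusted p = 0.905) without the dominating pairs, so its sign is not settled.

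Rnf32 lies closer to SBE2 than ZRS does (median distance 302 kb) but SBE2 was the highest of the 3 partners of Rnf32 in 0 of 8 replicates. Rnf32 with SBE2 was at 0.0106 and 0.0112 in ESC, 0.00605 and 0.00736 in NPC, 0.0138 in tSBE6-Vp64, 0.00589 in tSBE2-Vp64, and 0.0151 and 0.00444 in tSBE(6+2-Vp64). Both NPC replicates were below both ESC replicates, but without the dominating pairs and rescaled they were at 0.0111 and 0.0124 against 0.0106 and 0.0129 in ESC, within the ESC range. ZRS exceeded Rnf32 at SBE2 in 8 of 8 replicates, also with the highest fragment pair of each left out. At SBE4 and at SBE6 ZRS exceeded Rnf32 in 4 of 8, so the order of the pair there was not settled. The SBE2 contrast was noticed in the data and is a description, with no test.

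With SBE4, an enhancer near the middle of the domain, Rnf32 was at 0.0136 and 0.0152 in ESC and at 0.00559 and 0.00565 in NPC, with no overlap between the groups. The limma difference was -1.25 on the log2 scale (SE 0.74, unadjusted p = 0.092, adjusted p = 0.834). Without the dominating pairs and rescaled, ESC had 0.0137 and 0.0174 and NPC 0.0102 and 0.00948, which still do not overlap, and the limma difference was -0.60 (adjusted p = 0.694). With all pairs, the other groups had 0.0161 in tSBE6-Vp64, 0.00939 in tSBE2-Vp64, and 0.0201 and 0.00407 in tSBE(6+2-Vp64). ZRS with SBE4 was at 0.0152 and 0.00896 in ESC and 0.00759 and 0.00712 in NPC (log2 difference -0.62, SE 0.74, adjusted p = 0.994 by limma), and without the dominating pairs the difference was 0.03 (adjusted p = 0.999 by limma).

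SBE6 is the enhancer nearest to Shh, and the group labels name it, like SBE2, beside Vp64. Rnf32 with SBE6 was at 0.00945 and 0.00913 in ESC, 0.0114 and 0.0112 in NPC, 0.0141 in tSBE6-Vp64, 0.00835 in tSBE2-Vp64, and 0.0195 and 0.00565 in tSBE(6+2-Vp64). For Rnf32, NPC and tSBE6-Vp64 were above both ESC replicates and tSBE2-Vp64 was below both. ZRS with SBE6 was at 0.0124 and 0.00591 in ESC, 0.0104 and 0.00955 in NPC, 0.0139 in tSBE6-Vp64, 0.0105 in tSBE2-Vp64, and 0.0211 and 0.00565 in tSBE(6+2-Vp64). The tSBE(6+2-Vp64) replicates surround the ESC values for both. Without the dominating pairs and rescaled, NPC was above both ESC replicates for both, at 0.0208 and 0.0188 for Rnf32 (ESC 0.00947 and 0.0105) and at 0.0190 and 0.0160 for ZRS (ESC 0.0125 and 0.00678). The NPC differences were then 0.92 for Rnf32 and 0.85 for ZRS on the log2 scale, both with an adjusted p of 0.663 by limma. Treated in this way, tSBE2-Vp64 was also above both ESC replicates for Rnf32, at 0.0121. The Lmbr1 promoter with SBE6 was at 0.00554 and 0.00567 in ESC, 0.0108 in tSBE6-Vp64, 0.0126 in tSBE2-Vp64, and 0.0184 and 0.00675 in tSBE(6+2-Vp64), above both ESC replicates in all 3 transfected groups. The log2 differences were 0.86 (SE 0.94), 1.08 (SE 0.94) and 0.92 (SE 0.77), with adjusted p-values of 0.992, 0.990 and 0.981 by limma. NPC had 0.00479 and 0.00647, and 0.00885 and 0.0109 without the dominating pairs and rescaled, then above the ESC values of 0.00556 and 0.00651. None of the 9 pairs of an element with a neural enhancer passed in any comparison.

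**Figure D3:**
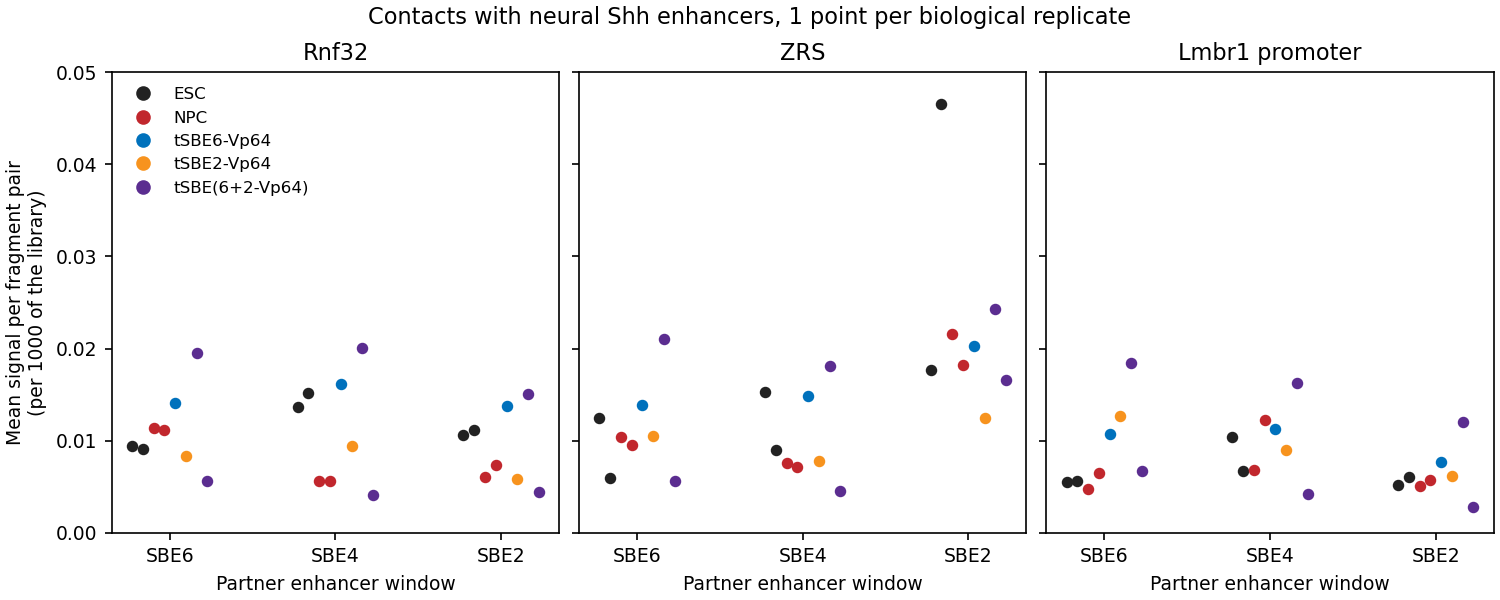
Mean signal per fragment pair (per 1000 reads of the library, linear axis from 0) of Rnf32, ZRS and the Lmbr1 promoter with the windows of SBE6, SBE4 and SBE2, with 1 point for each of 8 biological replicates coloured by group. The point at 0.0465 is ZRS with SBE2 in ESC replicate 2, and the tSBE(6+2-Vp64) replicates are mostly the highest and the lowest points of a column.

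Along the whole region, the ZRS profile did not fall evenly with distance. In ESC replicate 1, the mean signal of ZRS was 0.0145 with the 40-kb bin chr5:29440001-29480000, and it was higher with bins farther towards Shh, at 0.0238 with chr5:29280001-29320000 and 0.0221 with chr5:29240001-29280000. In tSBE6-Vp64 the same bins had 0.0158, 0.0219 and 0.0238. NPC replicates had 0.00894 and 0.00711 in the nearest of these bins, 0.0102 and 0.00838 in the next, and 0.0123 and 0.0131 in the farthest. ESC replicate 2 had 0.00948, 0.0148 and 0.0249 in the nearest, the next and the farthest, tSBE2-Vp64 had 0.0127, 0.0180 and 0.0151, and the tSBE(6+2-Vp64) replicates had 0.0181, 0.0286 and 0.0301, and 0.00682, 0.00719 and 0.0120. The nearest bin was thus below the farthest in 8 of 8 replicates. These bins, and those named next, were picked after the profile was seen and are a description, with no test. Past Lmbr1, the bin centred 219 kb away had 0.0183 and 0.0101 in ESC and 0.0210 and 0.0200 in NPC. The nearer bins at 139 kb were lower (0.00976 and 0.00617, 0.00370 and 0.00686). The bin at 219 kb holds Shh_514, whose single pair with Shh_431 was at 0.765 and 0.638 in the NPC replicates and 0.0195 and 0.309 in ESC. How far that pair carries the bin was not tested.

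**Figure D4:**
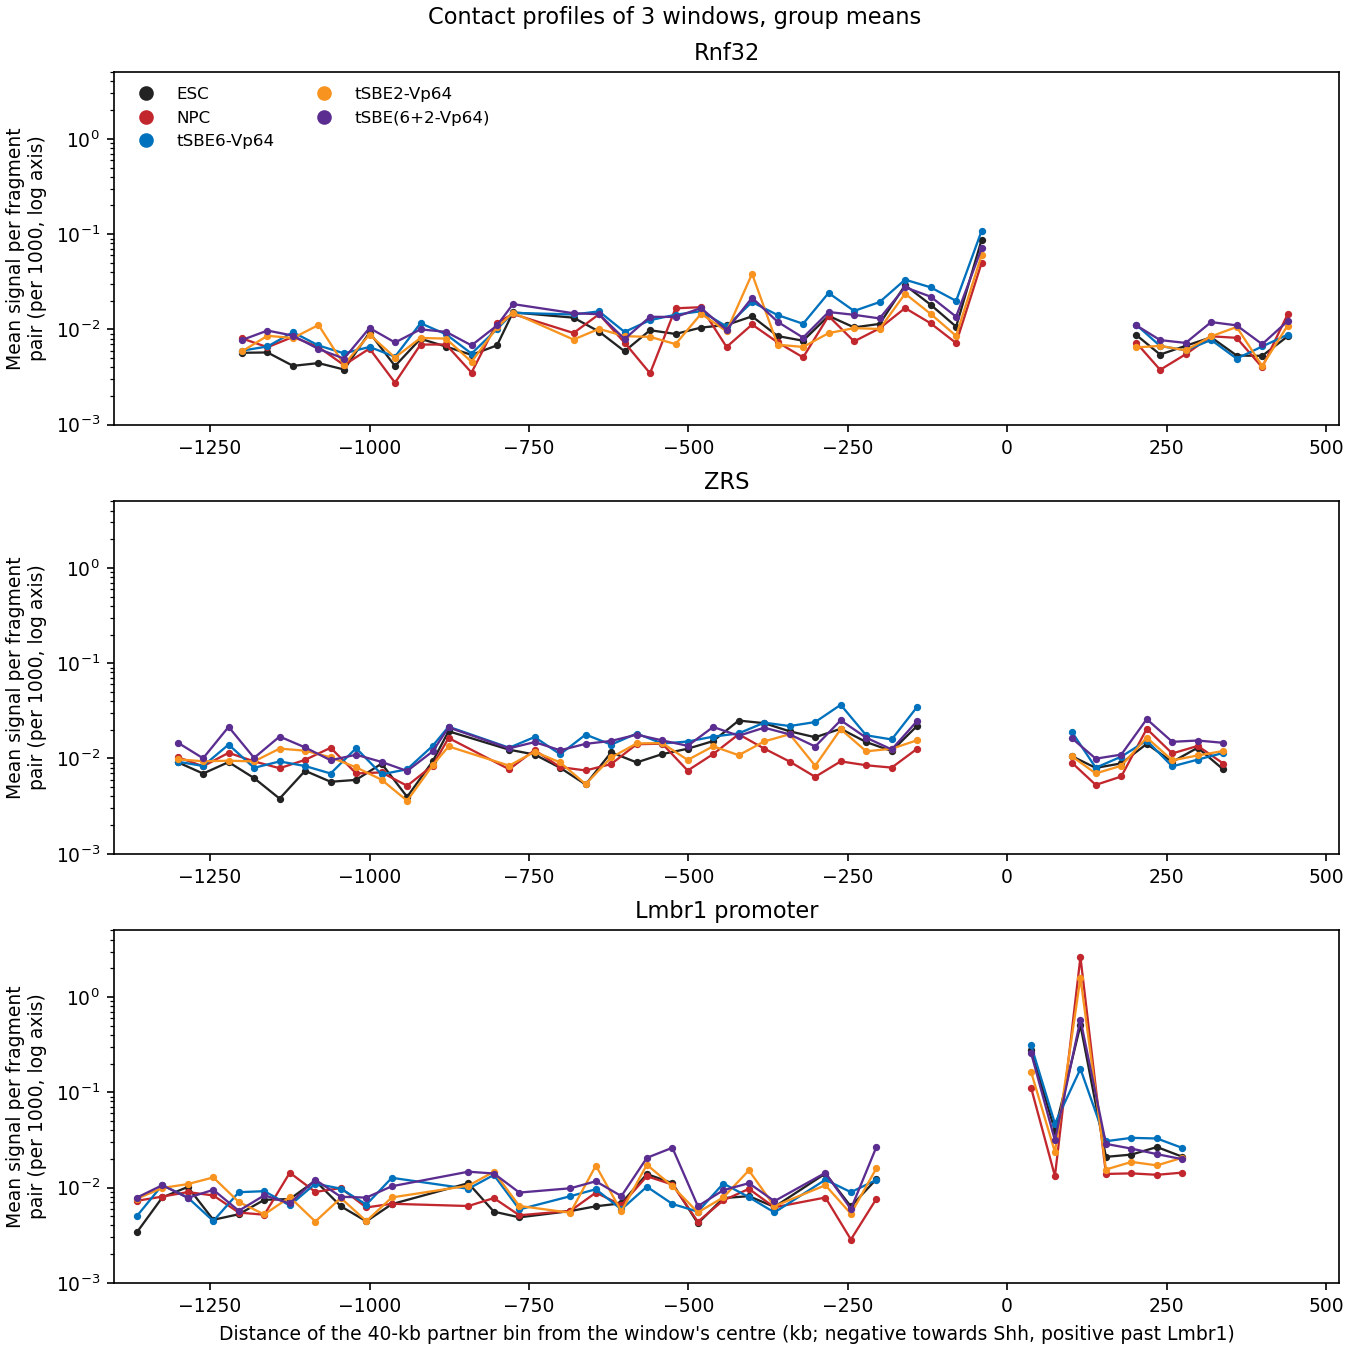
Mean signal per fragment pair (per 1000 reads, log axis) of the 3 windows with 40-kb partner bins of at least 10 fragment pairs, as group means, against the distance of the bin from the window's centre, with the interval itself left out. The Lmbr1 promoter panel has a single bin that stands out past Lmbr1, highest in NPC, while Rnf32 is highest in the bin next to the interval and ZRS has no bin that stands out in all groups.

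The Lmbr1 promoter bin that stands out overlaps the window of Mnx1, a homeobox gene of motor neurons and pancreas. The Lmbr1 promoter and Mnx1 windows (43 fragment pairs, median distance 90.5 kb) had a mean of 0.0565 and 1.03 per fragment pair in ESC, 2.93 and 2.66 in NPC, 0.184 in tSBE6-Vp64, 1.70 in tSBE2-Vp64, and 0.478 and 0.761 in tSBE(6+2-Vp64). NPC and tSBE2-Vp64 were above both ESC replicates, which themselves differed more than any other pair of replicates here. The NPC difference was 3.53 on the log2 scale (SE 1.80, unadjusted p = 0.051, adjusted p = 0.751 by limma), the smallest p among the flank genes in NPC. Without ESC replicate 2 it was 5.61, and without ESC replicate 1 it was 1.44, each with 1 ESC replicate left as the reference. With limma's spread not fitted to the mean signal it passed at the same size (adjusted p = 1.9e-04). The size of the difference thus depends on which ESC replicate is the reference. The same holds in the transfected groups. Without ESC replicate 2 the difference was 4.89 in tSBE2-Vp64 and 3.40 in tSBE(6+2-Vp64). Without ESC replicate 1 it was -2.48 in tSBE6-Vp64, which has the other ESC replicate as its reference. Over all fits that left out 1 replicate, the difference ran from -2.48 to 1.69 in tSBE6-Vp64. It ran from 0.73 to 4.89 in tSBE2-Vp64 and from -0.77 to 3.40 in tSBE(6+2-Vp64).

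Outside ESC replicate 1, most signal of this pair of windows came from 1 fragment, Shh_491 (chr5:29806189-29807449), with 3 fragments around the Lmbr1 promoter. In ESC replicate 1 the mean per fragment pair was 0.0565 with these pairs and 0.0421 without them, so most of it lay elsewhere. Shh_458 (chr5:29703904-29705290, 102 kb away) with Shh_491 was at 0.438 and 24.8 per 1000 in the ESC libraries, 128, 79.0 and 89.8 in the NPC libraries, 5.26 in tSBE6-Vp64, 58.8 in tSBE2-Vp64, and 7.75, 23.8, 28.6 and 10.1 in the tSBE(6+2-Vp64) libraries. This was the highest fragment pair of the Lmbr1 promoter in every group, and in the deepest NPC library it made up 79.1% of the outward signal of the window. The pairs of Shh_491 with Shh_460 and Shh_463, the other fragments, were at 0.197 and 0.113 in ESC replicate 1, at 17.4 and 1.02 in ESC replicate 2, and at 12.6 to 18.0 and 5.86 to 9.95 in NPC. The 22 measured pairs between neighbours of Shh_458 and neighbours of Shh_491, up to 3 fragments away, averaged 0.0112 to 0.0139 in NPC and 0.0447 and 0.0225 in ESC. Those 22 leave out the 3 high pairs of Shh_491, and Shh_460 and Shh_463 are themselves near Shh_458, so the high signal was shared among neighbours on the promoter side and seen with 1 fragment on the Mnx1 side.

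Without the 3 pairs, the Lmbr1 promoter and Mnx1 windows had 0.0421 and 0.0229 in ESC, 0.0169 and 0.0228 in NPC, 0.0346 in tSBE6-Vp64, 0.0196 in tSBE2-Vp64, and 0.0310 and 0.0189 in tSBE(6+2-Vp64). Both NPC replicates were then below both ESC replicates, but NPC replicate 2 (0.02283) was nearly equal to ESC replicate 2 (0.02288). With the libraries rescaled after leaving out all dominating pairs, ESC had 0.0422 and 0.0263 and NPC 0.0311 and 0.0383, which overlap. Shh_491 was measured with 27 interval fragments in all. Its signal with the fourth fragment of the promoter window, Shh_465, was 0.0445 to 0.387, and with the other 23, at Rnf32, ZRS and the Lmbr1 body, it was at most 0.116 in every library.

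**Figure D5:**
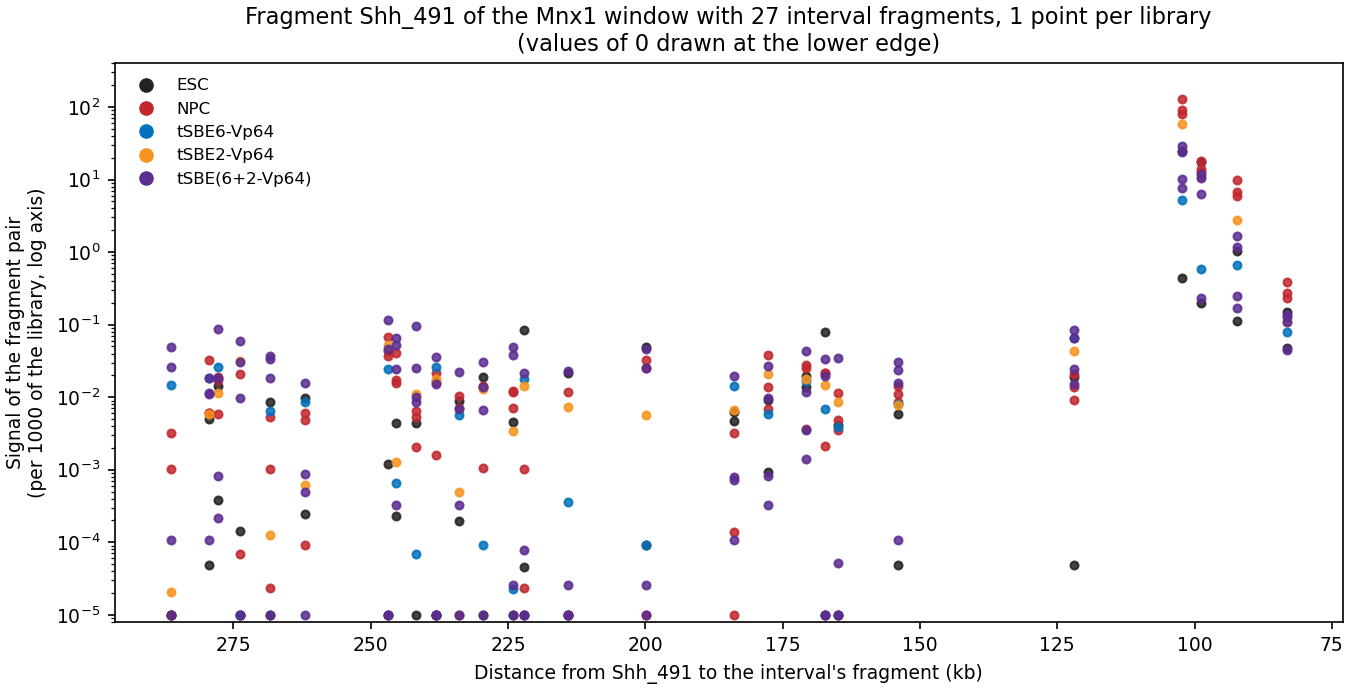
Signal per 1000 reads (log axis) of fragment Shh_491 in the Mnx1 window with each of 27 fragments of the interval, against the distance between the fragments in kb, with 1 point for each of 11 libraries coloured by group. Shh_458, Shh_460 and Shh_463, all in the Lmbr1 promoter window, carry the high values, up to 128 in NPC. The nearest fragment, Shh_465 of the same window, has 0.0445 to 0.387. The ESC library of replicate 1 has 0.438 at the pair where NPC is highest.

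Single pairs also led in the other windows, at much lower levels. Rnf32 was led in ESC, tSBE6-Vp64 and tSBE(6+2-Vp64) by Shh_382 with Shh_379, fragments 4.17 kb apart across the edge of the interval (1.47 and 1.05 per 1000 in ESC, 0.437 to 0.883 in NPC). On the mean of the NPC replicates it was led by Shh_385 (chr5:29527218-29527530) with Shh_224 (chr5:29028121-29029629), 498 kb apart in the desert. That pair was at 0.0125 and 0.0190 in the ESC libraries, at 0.837, 1.01 and 0.549 in the NPC libraries, at 0.0292 in tSBE6-Vp64, at 0.101 in tSBE2-Vp64, and at 0.0540, 0.0489, 0.375 and 0.0698 in tSBE(6+2-Vp64). Every NPC library is above every other library, but in NPC replicate 2 Shh_382 with Shh_379 was higher still, at 0.883. Its neighbours averaged 0.00700 to 0.0100 in NPC and 0.0106 and 0.0124 in ESC, without the rank of NPC above ESC that the pair itself shows. In tSBE2-Vp64 Rnf32 was led by Shh_388 with Shh_258 (1.03 in tSBE2-Vp64, 0.00629 and 0.101 in ESC).

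ZRS was led by a different pair in most groups. In NPC the leader was Shh_431 (chr5:29626315-29628597) with Shh_514 (chr5:29863830-29864649), 237 kb away past Lmbr1, at 0.802, 0.729 and 0.638 in the NPC libraries against 0.0195 and 0.309 in ESC and 0.0388 to 0.483 in the transfected libraries. Its neighbours averaged 0.0112 to 0.0158 in NPC and 0.0143 and 0.00914 in ESC. In tSBE6-Vp64 the leader was Shh_441 with Shh_304, at only 0.151, and in ESC replicate 1 it was at 0.115. In ESC replicate 2, the same pair was at 0.0363. In tSBE2-Vp64 and tSBE(6+2-Vp64) it was Shh_447 with Shh_260, 490 kb apart, at 0.519 in tSBE2-Vp64 and 0.0474, 1.03, 1.09 and 0.389 in the tSBE(6+2-Vp64) libraries, against 0.0113 and 0.736 in ESC.

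Between the windows, the body of Lmbr1 sent 24.6 and 18.1 per 1000 to the Shh domain in ESC, 35.9 and 38.2 in NPC, 28.7 in tSBE6-Vp64, 32.1 in tSBE2-Vp64, and 36.6 and 16.2 in tSBE(6+2-Vp64). NPC was above both ESC replicates, and 1 fragment pair gave much of it. Shh_403 (chr5:29560852-29561928) with Shh_379 (chr5:29514013-29518402), 45.2 kb apart across Rnf32, was at 0.0716 and 3.04 in the ESC libraries and 19.1, 24.9 and 24.2 in NPC. The transfected libraries had 1.40 in tSBE6-Vp64, 15.3 in tSBE2-Vp64, and 2.54, 7.24, 3.04 and 2.31 in tSBE(6+2-Vp64). NPC was above all other libraries and ESC replicate 1 below all. Without this pair the body sent 24.5 and 15.1 to the Shh domain in ESC, 13.9 and 13.9 in NPC, 27.3 in tSBE6-Vp64, 16.8 in tSBE2-Vp64, and 31.7 and 13.5 in tSBE(6+2-Vp64). NPC was then below both ESC replicates, so the direction of the sum rests on 1 fragment pair. With the dominating pairs also left out and the libraries rescaled, ESC had 24.6 and 17.3 and NPC 25.6 and 23.4, which overlap. Shh_407 with Shh_20, 1194 kb apart, near Insig1, was at 0.0104 and 1.78 in ESC and 11.6 to 15.8 in NPC. Shh_425 with Shh_64, near Cnpy1, was highest in tSBE(6+2-Vp64) replicate 2, technical replicate 1, at 22.7, against 1.33 in the other technical library of that replicate.

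Counted over the interval, 20 member fragment pairs were above 1 per 1000 (0.1% of the reads) in some library, 9 in the Lmbr1 body, 5 at the Lmbr1 promoter, 3 at Rnf32 and 3 at ZRS. Of the 20, 17 had their lowest value in ESC replicate 1 and 0 had their highest there. NPC libraries held the highest value of 7, and tSBE(6+2-Vp64) replicate 2, technical replicate 1, of 9. Exactly 10 were above 1 in a single library. The high pairs thus follow libraries as well as groups. These counts were not taken over the whole region, so they are not a trait of the interval. The dominating pairs of the whole region also took their smallest share in ESC replicate 1 (0.222%).

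NPC were set against ESC to see which contacts differ once stem cells have become neural progenitors. Over 20-kb bins, 3584 bin pairs were tested with limma, 714 of them members, and 0 members passed an adjusted p of 0.05 (background 0.112% higher and 0% lower, 4 and 0 of all bin pairs). At an unadjusted p of 0.05, 15 members were higher (background 2.96%) and 35 lower (background 5.05%) in NPC, which is near the background. Both NPC replicates were above both ESC replicates in 97 members (background 14%) and below in 187 (background 28.6%). The median log2 difference was -0.23 over members and -0.27 over all bin pairs. Without ESC replicate 1, 9 members passed (1.26% of members, background 1.37%), and without ESC replicate 2, 8 passed (1.12%, background 1.65%), below the background in both.

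The member bin pair with the smallest p in NPC was chr5:29500001-29520000 with chr5:29560001-29580000 (10 fragment pairs), which joins the sequence before Rnf32 to the Lmbr1 body and holds Shh_379 with Shh_403. It was at 0.0582 and 0.353 in ESC and 2.21 and 2.44 in NPC (log2 difference 4.01, SE 0.91, 95% interval 2.01 to 6.00, adjusted p = 0.166 by limma). The fragment pair Shh_379 with Shh_403 made up 99.5% of the NPC value. Without it the log2 difference was -2.19 (adjusted p = 0.786), so the direction rests on 1 fragment pair. This bin pair passed in several alternatives, among them without ESC replicate 1 (2.71, adjusted p = 0.0084) and without ESC replicate 2 (5.30, adjusted p = 1.5e-08). Of the 30 element pairs of Rnf32, ZRS and the Lmbr1 promoter, 0 passed in NPC (0% of 91 higher and 0% lower), 4 were above both ESC replicates (background 17.6%) and 6 below (background 26.4%). Of the 6, 4 were Rnf32 pairs.

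For tSBE6-Vp64, with 1 replicate, 0 of 714 members passed (background 0% in both directions). At an unadjusted p, 3 were higher (background 0.67%) and 2 lower (background 0.446%). The member median was 0.45 on the log2 scale against 0.47 over all bin pairs, a shift of the whole table. Without ESC replicate 1, 4 members passed (0.560%, background 1.2%), and without ESC replicate 2, 0 (background 0.112%). The sample was above both ESC replicates in 349 members (background 45.8%) and below in 103 (background 15.2%). Of the 30 element pairs, 0 passed (background 0%), 20 were above both ESC replicates (background 51.6%) and 1 below (background 11.0%), the 1 being Rnf32 with Cnpy1. Relative to the median of all bin pairs, 8 of the 30 were above and 22 below, against 29 above and 62 below among all 91 element pairs.

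For tSBE2-Vp64, also with 1 replicate, 0 of 714 members passed (background 0% in both directions), 10 were higher (background 2.18%) and 8 lower (background 1.31%) at an unadjusted p. Member and overall medians were 0.03 and -0.01. Without ESC replicate 1, 7 members passed (0.980%, background 0.893%), and 7 without ESC replicate 2 (background 1.06%), which is near the background. The sample was above both ESC replicates in 208 members (background 27.8%) and below in 228 (background 32.5%). The smallest p belonged to 1 fragment pair, Shh_453 with Shh_533, in bins chr5:29680001-29700000 and chr5:29920001-29940000. It was at 4.2e-05 in tSBE2-Vp64 against 0.0677 and 0.0364 in ESC (log2 difference -5.99, SE 1.14, adjusted p = 0.169 by limma) and 0.0633 in tSBE6-Vp64. Among element pairs 0 of 30 passed (background 0%), with 10 above both ESC replicates (background 30.8%) and 8 below (background 29.7%).

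For tSBE(6+2-Vp64), 0 of 714 members passed (background 0.0558% higher and 0% lower), 14 were higher (background 3.01%) and 1 lower (background 0.167%) at an unadjusted p. The member median was 0.24 and that of all bin pairs 0.28. Without ESC replicate 1, 9 members passed (1.26%, background 1.48%), and without ESC replicate 2, 6 (0.840%, background 0.949%). Both replicates were above both ESC replicates in 115 members (background 17.4%) and below in 18 (background 3.32%). The bins chr5:28440001-28460000 and chr5:29600001-29620000, which hold 2 fragment pairs between the sequence before En2 and the Lmbr1 body, had the smallest p here and in tSBE6-Vp64. They were at 1.6e-04 and 2.4e-05 in ESC, 0.0188 and 0.0244 in tSBE(6+2-Vp64), 0.0254 in tSBE6-Vp64, 0.0140 in tSBE2-Vp64, and 0.0147 and 0.0104 in NPC. The log2 differences were 4.72 (SE 0.99, adjusted p = 0.297) in tSBE(6+2-Vp64) and 4.96 (SE 1.21, adjusted p = 1) in tSBE6-Vp64 by limma. All 6 other replicates were above both ESC replicates, which lie below the pseudocount.

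Among element pairs of tSBE(6+2-Vp64), 0 of 30 passed (background 0%), and 1 was higher at an unadjusted p (background 2.2%). This was ZRS with En2, a homeobox gene of the midbrain and hindbrain (36 fragment pairs, median distance 1143 kb), at 0.00699 and 0.00241 in ESC, 0.0217 and 0.0205 in tSBE(6+2-Vp64), 0.0152 in tSBE2-Vp64, 0.0111 in tSBE6-Vp64, and 0.0117 and 0.00679 in NPC. The difference from ESC was 2.14 on the log2 scale (SE 0.73, unadjusted p = 0.0037, adjusted p = 0.336 by limma), and ZRS with En2 also had the smallest p among the flank genes in tSBE6-Vp64 (1.26, SE 0.90, adjusted p = 0.992) and tSBE2-Vp64 (1.69, SE 0.90, adjusted p = 0.990). The technical libraries within a replicate lay far apart, at 0.0315 and 0.0119 in replicate 1 and 0.0383 and 0.00265 in replicate 2. The fragment pair Shh_444 with Shh_53 made up 40.4% and 72.2% of the replicates' values. Without it they were at 0.0133 and 0.00585, which overlaps the ESC values of 0.00709 and 0.00247. The same fragment pair made up 51.0% of the tSBE2-Vp64 value, which was 0.00766 without it. In tSBE6-Vp64 it made up 1.65%, and the value was 0.0112 without it. Both tSBE(6+2-Vp64) replicates were above both ESC replicates in 4 of the 30 element pairs (background 12.1%) and below in 0 (background 3.3%).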

How the data were processed

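Chromatin was fixed with formaldehyde, cut with HindIII and religated, per the labels' protocols. The authors deposited 1 matrix per sample of normalized 5C signal between named fragments, with mm9 coordinates, the build named in the submitters' processing notes. For the aligner, filters and method of normalization, the sources used here give nothing. Low values were whole multiples of 1 step per library (tolerance 0.05), from which depth was implied. Each library was rescaled to 1000 over 341 shared fragments, technical libraries were averaged within a biological replicate, and the NPC library deposited under 2 sample names was counted once.

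Element windows (20 kb to either side) and 20-kb bins above 0 in at least 2 replicates were compared with ESC by limma 3.58.1 (trend, R 4.3.3) on log2(mean signal + 7.49e-04), with Benjamini-Hochberg adjustment over all bin pairs or all 91 element pairs and a threshold of 0.05. Fold changes are on this scale, which understates low values. Groups with 1 replicate took their spread from the others. In the main fits of element pairs, limma took the spread from a trend over all 91 pairs and not from each pair alone. Exact sign-flip tests used Python 3.11.15 with numpy 2.4.6, and the fits were tested on simulated data. Fragment pairs over 50 kb apart with over 0.5% of a library were kept, and left out as an alternative.

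Named pairs were those with SBE6, SBE4 and SBE2, the flank gene and the member bin pair of smallest p per comparison, and each window's highest fragment pair per group. Members and lists were chosen with earlier results of these data known, and the sign-flip tests were added after the data were seen. PCR reads are not independent molecules. Averaged matrices and pairs with Shh were not used here.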

Additional observations from a re-analysis of the deposited data

Results flagged for a closer look

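Of 39 measures compared over the 4 tSBE(6+2-Vp64) libraries, 10 had a value far from the rest of their group, each time the high value of replicate 1, technical replicate 1. This library had 99.8% of the member pairs above 0. It had 82.9% of its signal in pairs over 50 kb apart, against 30.2% to 59.8% in the other tSBE(6+2-Vp64) libraries. The outward sum of ZRS was also highest in it, at 51.1 per 1000 against 11.4 to 20.5. High values in this library were thus not particular to Rnf32. At the 95% critical value used, chance flags about 1 in 20 such groups. The 10 are not independent of each other, since they share 1 library and several share fragment pairs.

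Rnf32 was high in all zones, at 9.13 per 1000 with the Shh-side flank (the other libraries 2.02 to 3.08), 26.7 with the Shh domain (6.83 to 9.53) and 8.4 with the Lmbr1-side flank (1.66 to 2.79). Its mean signal per fragment pair was 0.0243 with SBE2 (0.00433 to 0.0058), 0.0336 with SBE4 (0.00239 to 0.00661), 0.0313 with SBE6 (0.0047 to 0.00777) and 0.0177 with Nom1 (0.00475 to 0.00568). ZRS was at 0.0336 with SBE6 (0.00413 to 0.00856) and 0.0229 with Mnx1 (0.00367 to 0.00611). The Lmbr1 promoter was at 0.0156 with Rbm33 (0.00142 to 0.00289).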

How the results depend on the processing

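No member bin pair or element pair passed in the settings reported, and several alternatives gave calls; their cause was not tested. Over members, leaving out 1 replicate gave 0 to 9 bin pairs in NPC, 0 to 4 in tSBE6-Vp64, 0 to 7 in tSBE2-Vp64 and 0 to 9 in tSBE(6+2-Vp64), and 0 to 1 element pairs in each. In NPC, 1 bin pair passed without the dominating fragment pairs, 3 with a pseudocount 10 times higher, 4 among bin pairs above 0 in every replicate and 8 with 40-kb bins. In tSBE2-Vp64 and in tSBE(6+2-Vp64), 2 passed among bin pairs above 0 in every replicate and 3 with 40-kb bins. With division by the mean signal at the same distance, 2 element pairs passed in NPC, Rnf32 with SBE4 (-2.67, adjusted p = 0.040 by limma) and ZRS with SBE2 (-2.06, adjusted p = 0.029), and 1 in tSBE2-Vp64, ZRS with SBE2 (-2.43, adjusted p = 0.042). Without limma's trend, 1 passed in NPC. Deviations of same-numbered replicates correlated at -0.03 (ESC with NPC), 0.20 (ESC with tSBE(6+2-Vp64)) and -0.02 (NPC with tSBE(6+2-Vp64)). With so few replicates, these values cannot settle whether same-numbered replicates share a batch. With the replicate block, 3 bin pairs passed in NPC and 1 in tSBE2-Vp64, and 0 in the other comparisons. Apart from the fits without an ESC replicate, no share over all bin pairs was computed for these alternatives. Their member counts therefore have no background to be read against. The Lmbr1 promoter's percent to the Lmbr1-side flank was 77.7 in ESC, 94.9 in NPC and 78.3 in tSBE(6+2-Vp64), and 61.4, 44.5 and 53.0 without the dominating pairs; in NPC it was 95.9 with 10-kb windows and 95.2 with the duplicated library in both replicates. With 10-kb windows, Rnf32 sent 17.6% there in ESC and 17.1% in tSBE(6+2-Vp64), and ZRS 23.0% in NPC and 25.6% in tSBE(6+2-Vp64). The planned count test on recovered reads was not run. Depth and evenness limit single pairs, since 28.5% of member pairs were above 0 in the sparsest library.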
